A study of Ambystoma mexicanum with 12 samples.

Results

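Limb patterning transcription factors outside the HOX clusters were followed in the mesenchyme of regenerating axolotl forelimbs. They were taken by gene symbol, as every assembled gene whose symbol begins with SALL, MSX, DLX, LHX, LMX, ALX, PRRX, PITX, HAND, TWIST, PAX, EYA, NKX, EN or the stem shared by SIX3 and SIX4, followed by a digit. The rule found 51 genes among the 36917 of the assembly. They carry 44 different symbols, of which 7 (TWIST3, NKX2-3, NKX6-1, SALL2, PAX4, DLX2 and LMX1A) stand on 2 assembled genes each. The PAX4 pair lies 8 bases apart and the NKX2-3 pair 97 bases apart, each on 1 strand, so each pair may be parts of 1 gene. The NKX6-1 pair overlaps on opposite strands. The choice by symbol also took in factors best known from the brain, gut, eye and pancreas, among them PAX4, NKX2-1 and NKX6-1, and the EYA genes, whose products are coactivators of SIX4 and its relatives rather than DNA-binding proteins.

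Albino axolotls were amputated through the mid-zeugopod of the forelimb and, 24 h later, kept for 5 days in 25 nM Am580, an agonist selective for retinoic acid receptor alpha, or in an equal volume of its solvent DMSO. Blastemas were taken 24 h after treatment ended, the epidermis was removed, and RNA of the right forelimb mesenchyme was sequenced as 6 Am580 and 6 DMSO libraries of 1 blastema each. Per the study, the sequenced Am580 animals were those with the most duplicated contralateral limbs, and the DMSO animals had no duplication. Treatment and the selection of animals therefore cannot be told apart. The study describes the animals as large juveniles, and their age is not given in the sources used here.

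A limb bud or limb blastema is patterned along its axes by transcription factors that respond to signals from the epidermis and the mesenchyme. Factors of the PRRX and TWIST families mark the mesenchyme itself, MSX and DLX factors are induced by bone morphogenetic protein (BMP) signals and mark the distal and marginal limb, LMX1B sets dorsal identity, and HAND, ALX, PITX and SALL factors act in anterior-posterior patterning, in fore- and hindlimb identity and in digit formation. Retinoic acid gives blastema cells a more proximal identity, so the comparison asks which of these factors were present at another level after Am580.

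Of the 51 genes, 26 had at least 10 counts in at least 6 libraries and were tested (edgeR, quasi-likelihood method), and 25 did not and were left untested. Total counts per library were 34279044 to 43793138 in the Am580 libraries and 27226012 to 40794002 in the DMSO libraries (exact permutation test, two-sided, p = 0.128, and p = 0.0346 without DMSO replicate 4), and 3 counts, the most that a count of 0 allows, equal 0.0637 to 0.111 CPM (counts scaled to library depth). This limit covers counting error only. Levels below are CPM with library sizes adjusted by the trimmed mean of M values (TMM), and log2 fold changes are Am580 over DMSO. The treatments were separated on the first principal component of all genes tested, which carried 28.6% of the variance. In bulk tissue, fewer cells of a type and less RNA per cell cannot be told apart.

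MSX2, MSX1, DLX5 and EYA4 were called lower with Am580, and no tested gene of the group was called higher. These 4 are 15.4% of the 26 tested genes, where the same test called 14.1% of all 25879 genes tested, 6.93% higher and 7.21% lower. In the same 4 genes, and in no other of the 26, the levels of the treatments did not overlap, which was so for 8.6% of all genes tested, with Am580 the lower in 4.63% and the higher in 3.97%. MSX1 was tested only because the DMSO libraries, where it was higher, passed the count filter, and with at least 10 counts required in every library 3 genes were called lower. The share of calls was near that of all genes, and the 4 calls were all lower. Of the 26 log2 fold changes, 19 lay below 0 (73.1%, against 49.5% of all genes tested) and the median was -0.34, against 0.00 over all genes. Before adjustment, 11 of the 26 had p under 0.05 (42.3%, against 25.7% of all genes). The 26 genes were measured in the same libraries and are not independent of each other, so these shares and the median were not tested. DESeq2, which called 18.2% of all genes, called 7 of the group lower, the 4 above with LMX1B, SALL1 and SIX4. In the plot of fold changes, genes that were not called lie on both sides of 0.

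**Figure D1:**
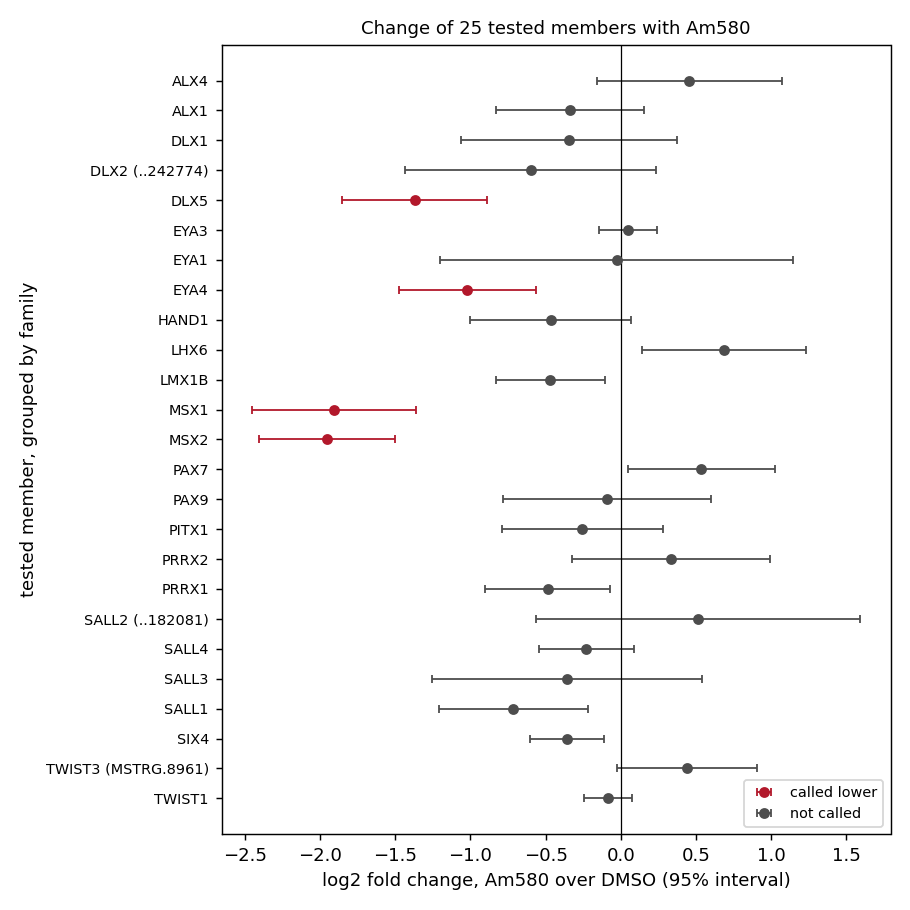
Log2 fold change (Am580 over DMSO) of 25 of the 26 tested genes, grouped by family, as points with 95% intervals; red points are the 4 genes called lower and grey points genes not called. The 4 called genes lie between -1.95 and -1.02, and most points are left of 0.

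The MSX genes encode homeodomain repressors that are induced by BMP signals and mark undifferentiated distal mesenchyme. MSX2 (MSTRG.11981, 4 exon blocks on the minus strand of scaffold AMEXG_0030002967 of AmexG_v3.0.0, 6647156 to 6687297) had a lowest, median and highest level of 8.89, 10.7 and 18.02 CPM in the Am580 libraries, against 33.0, 45.8 and 68.1 CPM in the DMSO libraries. The highest Am580 library, replicate 5, was well under the lowest DMSO library, replicate 1. MSX2 was 3.88-fold lower with Am580 (log2 fold change -1.95, SE 0.21, edgeR quasi-likelihood method, Benjamini-Hochberg adjusted p = 3.4e-05). MSX2 made up 2.27 to 3.74% of the summed level of the 51 genes in the Am580 libraries and 8.22 to 10.9% in the DMSO libraries.

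MSX1, its paralogue, was far scarcer. MSX1 (AMEXTC_0340000067090, 2 exon blocks on the plus strand of scaffold AMEXG_0030005336, 3271355 to 3275033) had 0.17, 0.23 and 0.27 CPM (lowest, median and highest) in the Am580 libraries, which is 6 to 12 counts, against 0.55, 0.87 and 1.18 CPM in the DMSO libraries, which is 17 to 40 counts. It reached 10 counts in 2 of the 6 Am580 libraries and in all 6 DMSO libraries, so it passed the filter through the DMSO libraries, where it was higher. Its level was 3.75-fold lower with Am580 (log2 fold change -1.91, SE 0.25, edgeR quasi-likelihood adjusted p = 0.000208). The counts of MSX2 over those of MSX1 had about the same range under both treatments, 34.3 to 83.8 (median 51.1) in the Am580 libraries and 35.0 to 84.2 (median 55.2) in the DMSO libraries. This follows from the similar fold changes of the 2 genes and is no further support for them. The ratio was not tested.

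DLX factors are distal-less homeodomain proteins of the limb bud's epidermal ridge and of skeletal precursors. DLX5 (MSTRG.8325, 3 exon blocks on the plus strand of scaffold AMEXG_0030001844, 809117 to 820036) had 1.44, 1.89 and 2.41 CPM in the Am580 libraries, against 3.47, 4.60 and 8.47 CPM in the DMSO libraries. No Am580 library reached the lowest DMSO library, and DMSO replicate 3 stood above the other 5 DMSO libraries. DLX5 fell 2.59-fold (log2 fold change -1.37, SE 0.22, edgeR quasi-likelihood adjusted p = 0.00102). The other tested DLX genes averaged under 1 CPM. DLX2 (AMEXTC_0340000242774) averaged 0.53 ± 0.25 CPM in Am580 and 0.81 ± 0.37 CPM in DMSO libraries, and DLX1 averaged 0.42 ± 0.19 CPM in Am580 and 0.53 ± 0.20 CPM in DMSO libraries (SD, n = 6 each). Their log2 fold changes of -0.60 and -0.34 had SEs of 0.39 and 0.33, and neither passed the test (edgeR quasi-likelihood adjusted p = 0.379 for DLX2 and 0.586 for DLX1). DLX1 lies across another locus called DLX2 (AMEXTC_0340000029452) on the opposite strand, which had at most 1 count. RefSeq places DLX6 next to DLX5, and DLX6 was not analysed here.

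EYA proteins are phosphatases and coactivators that work with homeodomain proteins such as SIX4 in muscle precursors, sense organs and kidney. EYA4 (MSTRG.15456, 25 exon blocks on the minus strand of scaffold AMEXG_0030004352, 1260545 to 1935326) had 5.75, 9.94 and 13.1 CPM in the Am580 libraries, against 15.1, 19.1 and 27.9 CPM in the DMSO libraries. The highest Am580 library, replicate 1, was under the lowest DMSO library, replicate 2. EYA4 fell 2.03-fold (log2 fold change -1.02, SE 0.21, edgeR quasi-likelihood adjusted p = 0.00522). EYA3, the more broadly expressed relative, had 5.09, 5.55 and 6.31 CPM in the Am580 libraries, against 4.94, 5.47 and 5.84 CPM in the DMSO libraries. Its log2 fold change of 0.05 had a 95% interval from -0.14 to 0.24, so that a difference above 1.5-fold lay outside it. EYA1 was counted on 2 short exon blocks with 2 to 20 counts a library, and its log2 fold change of -0.03 (SE 0.54) changed sign in 9 of 23 alternative settings.

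**Figure D2:**
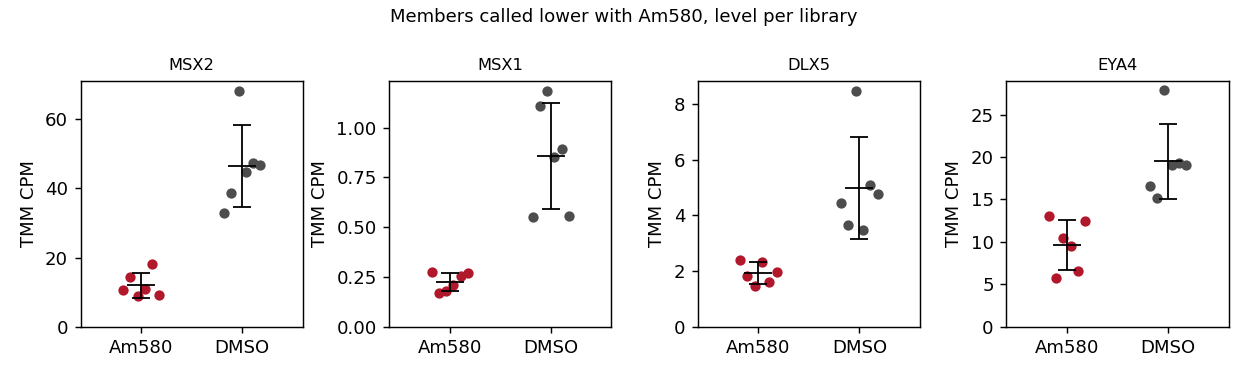
TMM-scaled CPM (linear axes from 0) of MSX2, MSX1, DLX5 and EYA4 in each of the 6 Am580 libraries (red) and 6 DMSO libraries (grey), with the mean and SD. In each panel the highest Am580 library is below the lowest DMSO library, and DMSO replicate 3 is the highest point.

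SIX4, a homeodomain partner of EYA proteins in muscle precursors, moved less. It had 5.98, 7.19 and 8.05 CPM in the Am580 libraries, against 7.42, 9.13 and 11.1 CPM in the DMSO libraries. The treatments overlapped, with 3 of 6 Am580 libraries under the lowest DMSO library. SIX4, with a log2 fold change of -0.36 (SE 0.11), did not pass the test (edgeR quasi-likelihood adjusted p = 0.0531). It passed in 7 of 25 alternatives, among them DESeq2 (adjusted p = 0.0190) and edgeR's test without Am580 replicate 1 (0.0384), DMSO replicate 1 (0.0477) or DMSO replicate 2 (0.0333). SIX3, a factor of the forebrain and eye, had at most 5 counts.

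PRRX1 and PRRX2 are paired-type homeodomain factors of limb mesenchyme, and PRRX1 is widely used to mark connective tissue cells of the blastema. PRRX1 (MSTRG.14565, 13 exon blocks on scaffold AMEXG_0030003966, 72287 to 324868) had 120, 153 and 219 CPM in the Am580 libraries, against 171, 197 and 314 CPM in the DMSO libraries. The treatments overlapped, and 3 of 6 Am580 libraries were under the lowest DMSO library. The log2 fold change of -0.49 (SE 0.19) did not pass the test (edgeR quasi-likelihood adjusted p = 0.124, and 0.0634 to 0.244 over 25 alternatives). PRRX2 had 26.4, 54.4 and 82.9 CPM in the Am580 libraries, against 24.4, 43.7 and 62.2 CPM in the DMSO libraries, with a log2 fold change of 0.34 (SE 0.30, edgeR quasi-likelihood adjusted p = 0.556). The counts of PRRX1 over those of PRRX2 were 1.99 to 4.56 (median 3.02) in the Am580 libraries and 3.10 to 7.53 (median 5.69) in the DMSO libraries, and these ranges overlap. This ratio was looked at after the levels of both genes were seen, so it was not tested. Loci on the opposite strand lie over both genes, and the reads were counted by strand.

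TWIST1, a basic helix-loop-helix factor that keeps limb mesenchyme undifferentiated, was among the most even genes of the group. It had 27.2, 30.3 and 33.8 CPM in the Am580 libraries, against 29.1, 32.1 and 35.6 CPM in the DMSO libraries, with a coefficient of variation of 8.03% in Am580 and 7.40% in DMSO libraries. The log2 fold change of -0.09 had a 95% interval from -0.25 to 0.08. TWIST3 (MSTRG.8961) had 5.24, 8.46 and 12.9 CPM in the Am580 libraries, against 4.29, 6.53 and 8.11 CPM in the DMSO libraries, and 3 Am580 libraries were above every DMSO library. A log2 fold change of 0.44 (SE 0.22) did not pass the test (edgeR quasi-likelihood adjusted p = 0.226). The other TWIST3 locus (MSTRG.23970) had at most 5 counts.

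The ALX factors, which repress Hedgehog signalling in the anterior limb bud, did not pass the test. ALX4 averaged 11.9 ± 5.69 CPM in Am580 and 8.71 ± 1.8 CPM in DMSO libraries (SD, n = 6 each). The Am580 libraries ranged from 5.30 CPM in replicate 6 to 19.8 CPM in replicate 2 and covered the whole DMSO range of 7.06 to 11.99 CPM. ALX1, a factor of craniofacial mesenchyme, was under 1 CPM in every library. The log2 fold changes were 0.46 for ALX4 and -0.34 for ALX1.

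LMX1B, the LIM homeodomain factor of dorsal limb mesenchyme, had 4.62, 8.07 and 8.76 CPM in the Am580 libraries, against 8.38, 9.85 and 12.5 CPM in the DMSO libraries. The treatments overlapped, with 3 of 6 Am580 libraries under the lowest DMSO library, and Am580 replicate 6 was the lowest. The log2 fold change of -0.47 (SE 0.17) did not pass edgeR's quasi-likelihood test (adjusted p = 0.0848), but passed with DESeq2 (adjusted p = 0.0474). LHX6, a LIM homeodomain factor known from the forebrain and the jaw, was scarce, with 0.39, 0.44 and 0.51 CPM in the Am580 libraries, against 0.16, 0.27 and 0.45 CPM in the DMSO libraries. It reached 10 counts in all 6 Am580 libraries and in 2 DMSO libraries, so it was tested through the Am580 libraries. Its log2 fold change of 0.68 (SE 0.25, edgeR quasi-likelihood adjusted p = 0.0958) was the highest of the 26. It passed without DMSO replicate 4 (0.90, adjusted p = 0.0246) and with counts thinned to the smallest library (0.82, adjusted p = 0.0359). LHX6 shares its strand with an overlapping locus of higher count (MSTRG.4559), so reads of the 2 loci may not be separable. LHX8 and LHX9 had at most 11 and 1 counts, LHX5 had 0 in all 12 libraries, and LHX2 was not analysed here.

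HAND1, a basic helix-loop-helix factor related to the posterior limb factor HAND2, had 3.02, 5.18 and 8.32 CPM in the Am580 libraries, against 5.29, 7.28 and 10.2 CPM in the DMSO libraries. The treatments overlapped, and its log2 fold change of -0.47 (SE 0.25) did not pass the test (edgeR quasi-likelihood adjusted p = 0.272). HAND2 was not analysed here.

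PITX1, a bicoid-related homeodomain factor, sets hindlimb identity in other vertebrates. It was detected in these forelimb libraries, with 2.59, 3.11 and 5.09 CPM in the Am580 libraries, against 2.04, 4.47 and 5.45 CPM in the DMSO libraries. The ranges of PITX1 overlapped almost wholly, and its log2 fold change was -0.26 (SE 0.25).

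SALL factors are zinc finger proteins of the autopod and zeugopod, and SALL4 also marks undifferentiated cells. SALL1 had 4.75, 6.87 and 11.0 CPM in the Am580 libraries, against 7.69, 11.4 and 16.6 CPM in the DMSO libraries. Of the 6 Am580 libraries, 4 were under the lowest DMSO library, and replicate 3 was the highest of the 6. The log2 fold change of -0.71 (SE 0.23) did not pass the test (edgeR quasi-likelihood adjusted p = 0.0559). It passed without Am580 replicate 3 (-0.86, adjusted p = 0.0238), without DMSO replicate 4 (-0.82, adjusted p = 0.0301), with DESeq2 (adjusted p = 0.0193) and with thinned counts (adjusted p = 0.0485). SALL4 had 14.6, 19.7 and 27.6 CPM in the Am580 libraries, against 20.01, 23.5 and 27.1 CPM in the DMSO libraries, with a log2 fold change of -0.23 (95% interval -0.54 to 0.09). SALL2 (AMEXTC_0340000182081) and SALL3 had log2 fold changes of 0.51 and -0.36 and varied more than 3-fold among the libraries of a treatment.

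PAX7, a paired-box factor of muscle satellite cells, was on the higher side with Am580. It had 3.09, 5.18 and 7.95 CPM in the Am580 libraries, against 3.14, 3.69 and 4.82 CPM in the DMSO libraries. Of the Am580 libraries, 4 were above the highest DMSO library, and replicate 6 was below the lowest. Its log2 fold change of 0.54 (SE 0.23, edgeR quasi-likelihood adjusted p = 0.150) passed the test without Am580 replicate 6 (0.66, adjusted p = 0.0488). Beside this, the muscle markers measured summed to 6393 to 21188 CPM in the Am580 libraries and 9243 to 22996 CPM in the DMSO libraries. Of these 14 loci, which carry 6 symbols, 1 was called higher and none lower. The 1 called was the myogenic regulator MYOG (edgeR quasi-likelihood adjusted p = 0.0489). The part of the muscle markers in the level of PAX7 was not tested. PAX9, a factor of the pharynx, vertebrae and limb, averaged 1.56 ± 0.62 CPM in Am580 and 1.66 ± 0.74 CPM in DMSO libraries (SD, n = 6 each).

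The remaining genes were at or near the limit of detection. Of the 25 untested genes, 8 had 0 counts in all 12 libraries. These were LHX5, EN2, NKX2-1, NKX2-2, NKX2-5, NKX2-8, 1 of the NKX6-1 loci (AMEXTC_0340000117276) and 1 of the LMX1A loci (AMEXTC_0340000036455). The other 17 had at most 28 counts in any library. That count was PAX6, the eye and forebrain factor, in Am580 replicate 6, and PAX6 had no more than 7 counts in any DMSO library. The highest counts of the others were 11 for LHX8, 9 for PAX2, 8 for NKX6-2 and for the other SALL2 locus, 7 and 5 for the PAX4 loci, 6 for PAX5, 5 for SIX3, for the other TWIST3 locus and for the other NKX6-1 locus, 2 for PAX8, and 2 and 1 for the NKX2-3 loci. LHX9, the other LMX1A locus and the other DLX2 locus reached 1 count. None of the 9 NKX loci could be tested, nor EN2, the only EN gene found. RefSeq places PAX9, NKX2-8 and NKX2-1 side by side, and of these neighbours PAX9 was the only one detected.

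Compared between genes, levels were divided by exon length, merged over all assembled transcripts of a gene. This length was 1356 bases for TWIST1 (2 transcripts) and 9575 bases for PRRX1 (13 transcripts), so the order depends on the assembly. Per kb of exon, TWIST1 was the highest of the 26 tested genes, at 22.6 ± 1.82 CPM per kb in Am580 and 24.0 ± 1.77 CPM per kb in DMSO libraries (SD, n = 6 each). PRRX1 came next, with 16.7 ± 4.32 in Am580 and 23.4 ± 6.03 CPM per kb in DMSO libraries. TWIST1 was above PRRX1 in all 6 Am580 libraries and in 4 of the 6 DMSO libraries. MSX2 was the third in DMSO libraries, with 13.0 ± 3.35 CPM per kb, and the sixth in Am580 libraries, with 3.36 ± 0.995 CPM per kb. LMX1B, SALL4, HAND1 and EYA4 lay between 1.76 and 3.30 CPM per kb in Am580 and between 3.23 and 4.56 CPM per kb in DMSO libraries. Most neighbours in this order overlapped. PRRX1 was above PRRX2 without overlap in DMSO libraries, PRRX2 was above MSX2 without overlap in Am580 libraries, and MSX2 was above TWIST3 without overlap in DMSO libraries. In the plot of levels these are the gaps, and the rest of the order runs on from gene to gene.

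**Figure D3:**
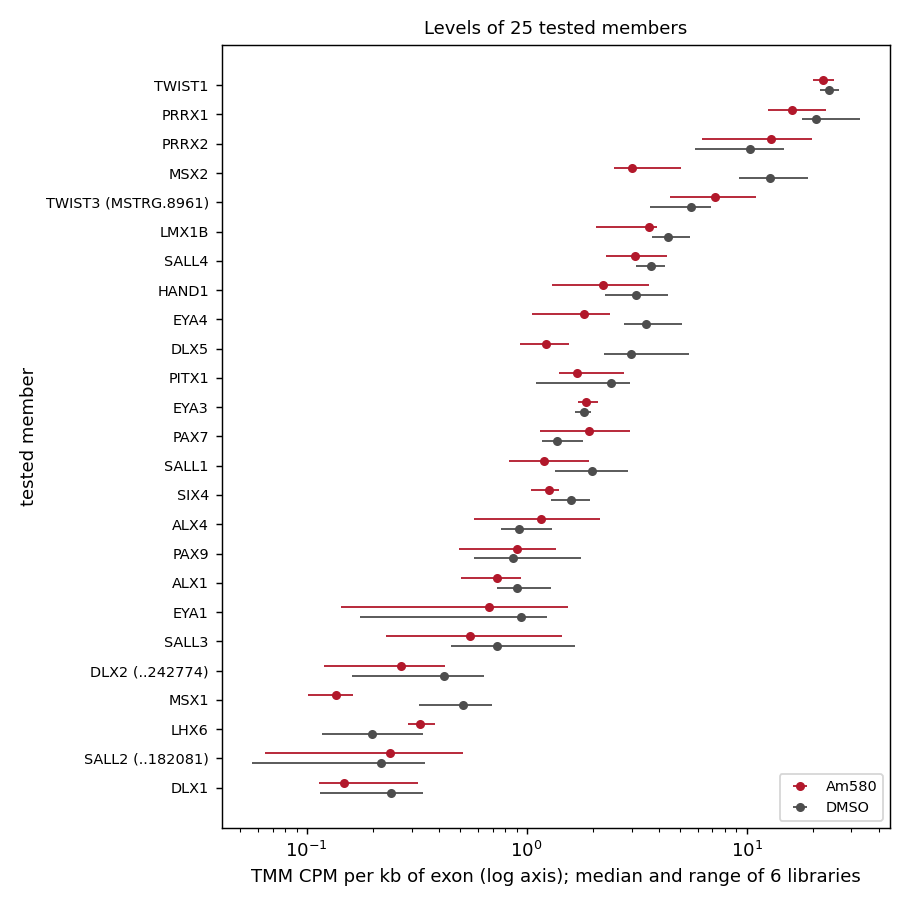
TMM-scaled CPM per kb of exon (log axis) of 25 of the 26 tested genes, ordered by their mean over all libraries, with the median as a point and the lowest to highest of 6 libraries as a line, Am580 in red above DMSO in grey. The bars of MSX2, EYA4, DLX5 and MSX1 do not overlap between the treatments.

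PRRX1 alone took 36.0 to 48.9% of the summed level of the 51 genes in the Am580 libraries and 40.9 to 50.3% in the DMSO libraries. The sum was 305 to 482 CPM in the Am580 libraries and 391 to 625 CPM in the DMSO libraries. Both of its highest values, 482 CPM in Am580 replicate 5 and 625 CPM in DMSO replicate 3, came from the libraries with the most PRRX1.

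Am580 replicates 2 and 5 were the highest pair of the 6 Am580 libraries for 7 genes (PRRX2, MSX2, SALL4, PAX7, ALX4, LHX6 and SALL2). This pair was the highest for 9.54% of all genes tested. They were the lowest pair for 2 of the 26, EYA4 and SIX4, and for 9.28% of all genes tested. Am580 replicates 1 and 6 were the lowest pair for 8 of the 26 genes, and for 11.2% of all genes tested. These pairs were picked from 15 after their counts were seen. DMSO replicate 3 was the highest DMSO library for 10 of the 26 (38.5%, against 16.1% of all genes tested), the 4 that fell among them. The summed level of cartilage markers was 754 to 1303 CPM in the Am580 libraries, against 1962 CPM in DMSO replicate 3 and a median of 840 CPM over the DMSO libraries. COL11A1 (MSTRG.7130) made up most of that sum, with 562 to 1169 CPM in the Am580 libraries and 529 to 1250 CPM in the DMSO libraries. Of the 8 cartilage loci tested, 1 was called lower, the other COL11A1 locus (MSTRG.25003), and none higher. With DMSO replicates 1 and 3 both left out, the 4 genes were still called lower and no other was called. The map of libraries shows the 4 genes low across the Am580 columns, and the pair of replicates 2 and 5 high in its lower rows.

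**Figure D4:**
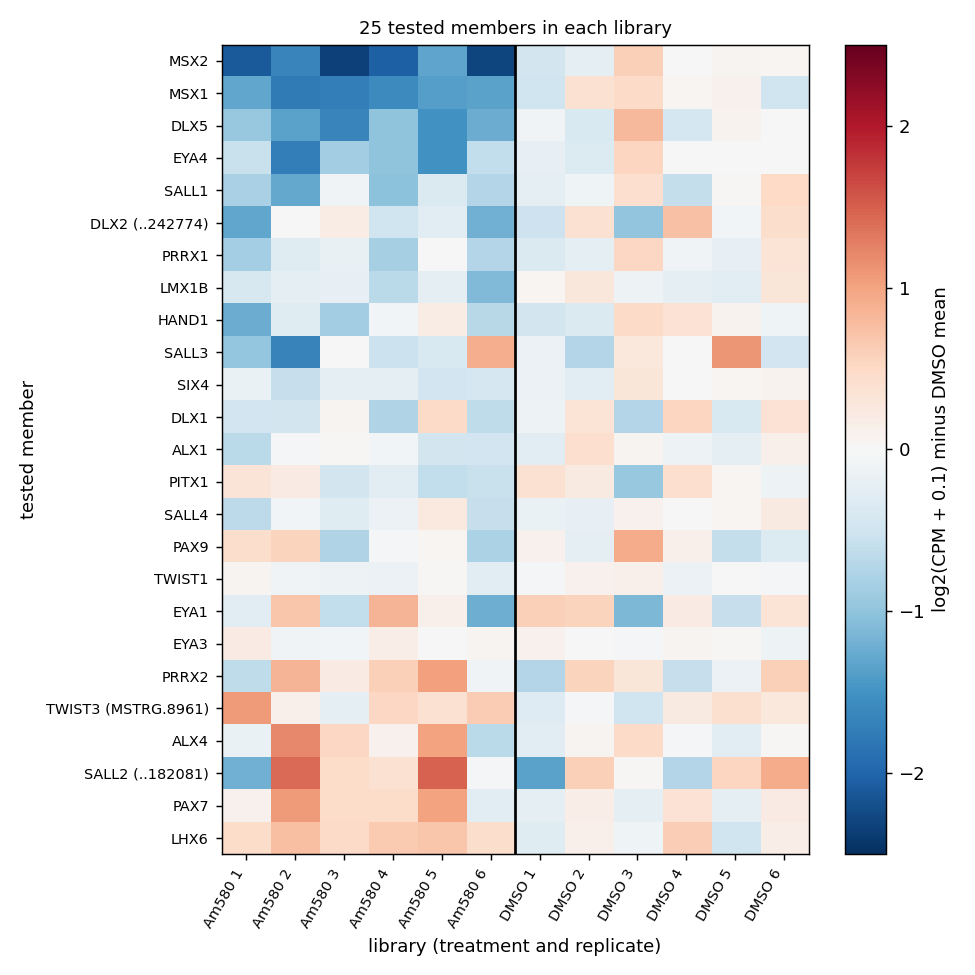
The same 25 tested genes (rows) in each of the 6 Am580 and 6 DMSO libraries (columns), as log2(CPM + 0.1) minus the mean of the DMSO libraries, blue for lower and red for higher; genes are ordered by log2 fold change. The top 4 rows, MSX2, MSX1, DLX5 and EYA4, are blue in all 6 Am580 columns, and the bottom row, LHX6, is red in all 6.

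Marker genes of other cells were measured beside these factors. The connective tissue list, used to check the mesenchyme label, had 6 genes tested and none called, with a summed level of 7069 to 12374 CPM in the Am580 libraries and 9198 to 16631 CPM in the DMSO libraries. The 4 tested osteoclast markers were all lower with Am580, and the summed level of that list was 150 to 382 CPM in the Am580 libraries and 1462 to 2309 CPM in the DMSO libraries. Macrophage markers were 635 to 931 CPM in the Am580 libraries and 1033 to 1495 CPM in the DMSO libraries, with 2 of 4 lower and 1 higher. Schwann and neural markers summed to 80.9 to 239 CPM in the Am580 libraries and 124 to 386 CPM in the DMSO libraries, with 1 of 4 lower. Epidermal markers summed to 387 to 506 CPM in the Am580 libraries and 534 to 718 CPM in the DMSO libraries, with KRT18 the 1 of 6 that was lower. KRT18 made up most of that sum, with 364 to 472 CPM in the Am580 libraries and 455 to 706 CPM in the DMSO libraries. The sum is therefore mainly the level of this 1 gene. Among the DMSO libraries KRT18 was highest in replicate 3, while KRT12, TP63 (MSTRG.22689), DSP (MSTRG.4843), EPCAM and CDH1 were highest in replicate 1. KRT12 and TP63 (MSTRG.22689), which were not called, had log2 fold changes of 1.19 and 1.25. DSP (MSTRG.4843), EPCAM and CDH1, also not called, had log2 fold changes of -1.09, -1.04 and -0.90. None of these markers was at 0 in its libraries apart from secondary loci with few counts, and their part in the fall of the 4 factors was not tested. CDH1 and EPCAM, which define epithelium, were highest in DMSO replicate 1 (11.8 and 35.4 CPM, against medians of 0.88 and 3.25 CPM over the DMSO libraries).

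The factors work with cofactors and signals, taken as a list of 38 symbols of which 24 were found, on 28 genes. Of the 22 genes tested, 4 rose and 4 fell, against 6.93% and 7.21% of all genes, and the median log2 fold change was -0.01. Without DMSO replicate 2 the 8 calls became 5, and HHIP, 1 of the 4 that fell, was not tested when any DMSO library was left out. BMP7, a ligand upstream of MSX and DLX genes, had 7.64, 9.86 and 13.8 CPM in the Am580 libraries, against 16.2, 24.3 and 40.0 CPM in the DMSO libraries. Its treatments did not overlap, and it fell by 1.29 on the log2 scale (SE 0.21, edgeR quasi-likelihood adjusted p = 0.000956). ID4 (MSTRG.9136), of a family of BMP targets, fell by 0.61 (adjusted p = 0.0136 in edgeR's test, but 0.0606 with replicate number as a block). SMAD7, an inhibitor of BMP and TGF-beta signalling, rose by 0.33 on the log2 scale (edgeR adjusted p = 0.0262). It was not called in 6 of 25 alternatives, with adjusted p of 0.0527 to 0.0590 without Am580 replicates 3 or 4 or DMSO replicates 1, 2 or 5. SMAD6 was not called. Of the 10 BMP symbols on the list, 4 were found. BMP2, BMP4, ID1, ID2, ID3 and GREM1 were not found under these symbols and were not analysed here.

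HHIP, which binds Hedgehog ligands and is induced by them, had 0.05, 0.12 and 0.20 CPM in the Am580 libraries at its tested locus (AMEXTC_0340000000001), against 0.65, 0.91 and 1.45 CPM in the DMSO libraries. The treatments did not overlap there or at the 2 other HHIP loci, which did not pass the count filter. MSTRG.8152 had 0 to 5 counts in the Am580 libraries and 7 to 26 in the DMSO libraries. AMEXTC_0340000153489 had 0 to 1 and 2 to 6 counts. These last counts lie near the limit of 3 counts, so the lack of overlap there carries little weight. MSTRG.8152 lies on the same scaffold and strand as the tested locus, so the loci may be parts of 1 gene and are not separate support. At the tested locus, the log2 fold change of -3.04 (SE 0.30, edgeR adjusted p = 2.0e-05) rests on a gene that passed the filter through the DMSO libraries, as no Am580 library reached 10 counts. The Hedgehog receptor PTCH1 had a log2 fold change of -0.06 and was not called, nor was the effector GLI3. SHH and GLI1 were not found under these symbols and were not analysed here.

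Of the LIM factors' cofactors, LDB1, the adaptor that bridges LIM homeodomain proteins, had 72.2, 73.6 and 83.3 CPM in the Am580 libraries, against 57.5, 59.3 and 64.2 CPM in the DMSO libraries. The treatments did not overlap, and LDB1 rose by 0.32 on the log2 scale (SE 0.06, edgeR adjusted p = 0.00273). LMO4, a LIM-only protein that competes for LDB1, fell by 0.41 (edgeR adjusted p = 0.0337), but was not called in 10 of 25 alternatives, with adjusted p of up to 0.0824 with replicate number as a block and 0.0516 to 0.0814 without Am580 replicates 2, 4, 5 or 6 or DMSO replicates 2, 3, 4 or 6. The Groucho corepressor TLE3 rose by 0.33 (SE 0.07, edgeR adjusted p = 0.00791), with 57.7 to 67.9 CPM in the Am580 libraries and 42.7 to 55.1 CPM in the DMSO libraries and no overlap. DACH1, a corepressor that acts with SIX4-type factors and EYA proteins, had 3.82, 7.89 and 9.22 CPM in the Am580 libraries, against 2.13, 3.50 and 4.26 CPM in the DMSO libraries. DACH1 rose by 1.15 on the log2 scale (SE 0.22, edgeR adjusted p = 0.00273), while EYA4 fell. The E proteins TCF3, TCF4 and TCF12, which pair with TWIST and HAND factors, were not called.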

How the data were processed

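Per the labels and the study's methods, poly-A selected stranded libraries of 12 blastemas were trimmed by the authors with Trimmomatic 0.36, aligned to AmexG_v3.0.0 with HISAT2 2.1.0, assembled and merged with StringTie 1.3.4d, and counted per gene on exons, by strand, with featureCounts of Subread 1.6.2. The deposited counts are whole numbers without normalization for 36917 genes. The deposited assembly holds other values, the positions of transcripts and exons, and gave names and exon lengths. The deposited abundance table was not used. RefSeq gene order comes from the assembly UKY_AmexF1_1, and no sequence was used.

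Filtering kept genes reaching 10 counts in 6 or more libraries, which were then compared in R 4.3.3 by edgeR 4.0.16 (legacy quasi-likelihood F test, TMM factors, treatment as the only term, Benjamini-Hochberg adjustment over all genes tested, adjusted p under 0.05 called). The fit was tested on simulated data. The genes of the group and the lists of cofactors and markers were chosen with earlier results of these data known. Named genes are those called, the 15 highest per kb of exon, any without overlap between treatments, and the range of each family. Of the cofactor list, those called were named. SIX4, LHX6 and other genes outside this rule were named after their values were seen. Results of 1 tested gene of the group and of 1 of the cofactor list are not reported here, though both are counted in the totals. Replicates are separate animals.

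Alternatives tried were scaling by upper quartile, by library size or by DESeq2's size factors, no filter, filterByExpr and 10 counts in every library, DESeq2 1.42.0, limma-voom (limma 3.58.1) and edgeR's current method, counts thinned to the smallest library, replicate number as a block, loci of 1 symbol summed, and each library left out in turn. Leaving out DMSO replicates 1 and 3 together was chosen after seeing the data.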

Additional observations from a re-analysis of the deposited data

How the results depend on the processing

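MSX2, DLX5 and EYA4 were called lower in each of the 25 alternatives and MSX1 in each of the 24 in which it was tested, with log2 fold changes of -2.10 to -1.81 for MSX2, -2.05 to -1.79 for MSX1, -1.46 to -1.13 for DLX5 and -1.12 to -0.89 for EYA4. With at least 10 counts in every library, MSX1 was not tested and 3 genes were called lower. DESeq2 called 7 of the group lower, adding LMX1B, SALL1 and SIX4, and thinned counts called 6 lower and 1 higher. Leaving out 1 library at a time gave 4 to 5 called lower and 0 to 1 called higher (PAX7 without Am580 replicate 6, LHX6 without DMSO replicate 4), 2980 to 3842 calls over all genes, where the full set gave 3660, and 5 to 8 of the cofactor list, where the full set gave 8, with 5 without DMSO replicate 2. The list also gave 5 with DMSO replicates 1 and 3 left out. The p for depth ranged from 0.0346 without DMSO replicate 4 to 0.255. With library size only, 59.4% of calls over all genes were higher, and 54.2% with upper-quartile scaling, against 49.0% with TMM, and the median gene shifted to 0.05 and 0.03. Replicate numbers did not pair the libraries, since same-numbered libraries correlated at -0.17 to 0.23 in their deviations and 1 of 6 correlated best with its own number. With replicate number as a block, 5 of the group were called lower (SALL1 added, adjusted p = 0.0161), 3440 over all genes and 6 of the cofactor list. Counts of 40 or fewer in every library limit MSX1, LHX6, DLX1, ALX1 and EYA1. Without the count filter, 4 of the group were again called lower and 0 higher. None of the untested genes with counts was therefore called there, while 10 of the cofactor list were. With so few counts, a difference in the untested genes may be missed at this depth.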
